A study of Mus musculus with 8 samples.

Results

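Transcripts of 10 genes for matrix-degrading proteases and their inhibitors were followed in single-cell RNA-seq libraries of the developing mouse forelimb. The genes, out of 28001 counted, were taken by symbol. They are the matrix metalloproteinases *Mmp2*, *Mmp11* and *Mmp14*, the tissue inhibitors of metalloproteinases *Timp1*, *Timp2* and *Timp3*, and the secreted proteases *Adamts1*, *Adamts2*, *Adamts5* and *Adamts19*. All mice were C57BL/6J. The sorted libraries are labelled Hic1CreERT2/CreERT2;Rosa26LSLtdTomato/tdTomato and the whole limb ones Hic1;tdTomato, without their alleles. Cre was thus expressed from both *Hic1* alleles in the sorted groups, and cells in which it was active at induction were marked, with their progeny, by tdTomato. Dams received 7.5 mg of tamoxifen by gavage at embryonic day (E) 10. Sorted tdTomato+ cells gave 1 library each at E11.5, E12.5, E13.5 and E14.5 and 2 libraries at E16.5, a proximal one (distal stylopod, elbow and proximal zeugopod) and a distal one (distal zeugopod and autopod). Whole E11.5 limbs, sorted without regard to tdTomato, gave 2 libraries, replicates 1 and 2, labelled as holding tdTomato+ and tdTomato- cells. Each library pooled forelimbs of several embryos of both sexes, and blood, endothelial and immune cells had been gated away.

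Matrix metalloproteinases are zinc-dependent enzymes that cut collagens and other proteins of the extracellular matrix, and most are made as inactive precursors. MMP14 sits in the cell membrane, and together with TIMP2 it binds and activates the precursor of MMP2, whereas at higher levels TIMP2, like the other TIMPs, blocks the enzymes. ADAMTS proteases are secreted relatives with thrombospondin repeats, some of which cut the proteoglycans versican and aggrecan and some of which trim procollagen. In the limb, these enzymes act where mesenchyme condenses into cartilage and where digits separate.

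In total 53085 of 57469 barcodes had at least 3000 unique molecular identifiers (UMIs) and at most 10% mitochondrial UMIs, with library medians of 6788 to 18473 UMIs per cell. Levels are given as counts per 1e6 UMIs (CPM) summed over the mesenchymal cells of a library. In sorted and whole E11.5 libraries, clusters that best matched epithelial, myogenic, muscle fibre, endothelial, immune, erythroid or glial markers were left out, named or not. From E12.5 on, only epithelial-like clusters were left out. Marker lists of those cells still summed to 9.99 to 118 CPM for muscle fibre (highest in E16.5 proximal), 40.5 to 135 CPM for epithelium, 14.1 to 49.0 CPM for endothelium and 1.33 to 4.99 CPM for immune cells. The erythroid list summed to 0.1596 to 109 CPM, highest in E16.5 proximal, with 98.9 and 4.22 CPM in the whole limb replicates. Libraries shared at most 1.04% of their barcodes. Whole limb, in which marked cells were few, held tdTomato at 3.77 and 4.33 CPM against 456 CPM in sorted E11.5 cells. *Hic1* was at 0.771 and 0.785 CPM in whole limb and 23.8 CPM in sorted E11.5 cells. Stage cannot be told apart from the dissociation enzymes, which changed after E12.5, or from the 10x kit, which changed after E13.5. The part of the limb also changed after E14.5, from forelimb pairs to segments. In comparisons with E16.5 proximal, stage thus cannot be told apart from segment. Only whole limb had replicates, so all other values come from 1 library each, and their 95% intervals cover counting error only. A higher sum in a library cannot be told apart between more expressing cells and more RNA per cell.

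*Mmp14*, the membrane-bound activator, was at 107 CPM in E11.5 cells, then 142 (E12.5), 157 (E13.5) and 157 (E14.5), and 216 in E16.5 proximal and 324 in E16.5 distal cells. Whole limb libraries held 46.7 and 41.3 CPM, below every sorted library. E13.5 and E14.5 had overlapping intervals, and all other neighbours in the order of levels were separated by more than counting error. *Mmp14* lies at chr14:54431612-54445364, + strand (GRCm38, as are all positions below).

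*Mmp2*, the gelatinase that MMP14 activates, varied least among the sorted libraries. It was at 84.8 CPM in E11.5 cells, then 78.7 (E12.5), 94.8 (E13.5) and 106 (E14.5), and 131 in E16.5 proximal and 124 in E16.5 distal cells, with 69.7 and 64.4 CPM in whole limb. The highest library, E16.5 proximal, was 1.55-fold (95% interval 1.49 to 1.61) above E11.5, and no neighbours in the order overlapped. *Mmp2* lies at chr8:92827291-92853420, + strand.

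*Mmp11* (stromelysin 3, which is activated inside the cell by furin-like enzymes) had another course, with its highest levels in the middle stages. It was at 59.9 CPM in E11.5 cells, then 82.3 (E12.5), 85.6 (E13.5) and 76.2 (E14.5), and 20.6 in E16.5 proximal and 60.6 in E16.5 distal cells. Whole limb held 17.7 and 16.4 CPM. E12.5 and E13.5 overlapped, as did E11.5 and E16.5 distal. The E16.5 proximal library stood apart from the other sorted libraries, at 0.270 (95% interval 0.261 to 0.280) times its E14.5 level. *Mmp11* lies at chr10:75923222-75936496, - strand and overlaps *Chchd10* on the other strand.

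*Timp2*, the inhibitor that also takes part in MMP2 activation, was higher in each later sorted library, at 83.6 CPM in E11.5 cells, then 134 (E12.5), 151 (E13.5) and 229 (E14.5), and 300.4 in E16.5 proximal and 359 in E16.5 distal cells. In whole limb it was at 67.4 and 73.4 CPM. No neighbours in the order of its levels overlapped. *Timp2* lies at chr11:118301069-118355740, - strand and shares that strand with *Cep295nl* inside it, so reads of the 2 genes may have been split or dropped and its level is uncertain.

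*Timp1*, a soluble inhibitor, was the least abundant of the 3 Timps in every library. Its levels were 6.83 CPM in E11.5 cells, then 9.001 (E12.5), 11.02 (E13.5) and 20.8 (E14.5), and 49.8 in E16.5 proximal and 37.8 in E16.5 distal cells, and 7.73 and 7.72 CPM in whole limb. The whole limb levels overlapped those of E11.5 and E12.5. *Timp1* lies at chrX:20870166-20874735, + strand, within *Syn1* on the other strand.

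*Timp3*, an inhibitor that binds to the matrix and also blocks ADAMTS proteases, was the only Timp that was lower at E16.5 proximal than at E11.5. It was at 162 CPM in E11.5 cells, then 192 (E12.5), 154 (E13.5) and 78.9 (E14.5), and 92.6 in E16.5 proximal and 152 in E16.5 distal cells, and at 103 and 107 CPM in whole limb. Its E14.5 level was 0.511 (95% interval 0.496 to 0.527) times its E13.5 level, a step at which the kit also changed. *Timp3* lies at chr10:86300372-86349506, + strand and overlaps *Syn3* on the other strand.

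*Adamts2*, which removes the amino-terminal propeptide of fibrillar procollagens, had the widest range of the 10 genes. It was at 2.71 CPM in E11.5 cells, then 6.33 (E12.5), 11.3 (E13.5) and 28.5 (E14.5), and 61.3 in E16.5 proximal and 66.03 in E16.5 distal cells. In whole limb it was at 0.471 and 0.976 CPM, which is 22 and 46 UMIs. The order of its sorted libraries followed embryonic age with no overlap. *Adamts2* lies at chr11:50602084-50807573, + strand.

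*Adamts1* and *Adamts5*, proteases of versican and aggrecan, are neighbours on chromosome 16, 53059 bases apart with no counted gene between them (chr16:85793827-85803113, - strand, and chr16:85856173-85901828, - strand). *Adamts1* was at 36.1 CPM in E11.5 cells, then 59.4 (E12.5), 65.7 (E13.5) and 51.6 (E14.5), and 116 in E16.5 proximal and 174 in E16.5 distal cells. Whole limb had 34.0 and 30.8 CPM, and its replicate 1 overlapped sorted E11.5. *Adamts5* was at 8.97 CPM in E11.5 cells, then 14.7 (E12.5), 15.2 (E13.5) and 30.2 (E14.5), and 55.8 in E16.5 proximal and 71.4 in E16.5 distal cells, with 4.18 and 3.78 CPM in whole limb. Both genes were highest in E16.5 distal cells, but *Adamts5* was higher in each library after E13.5 while *Adamts1* was lower at E14.5 than at E13.5.

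*Adamts19*, a family member whose substrate is poorly known (chr18:58836667-59054060, + strand), was scarce through E14.5. It was at 3.16 CPM in E11.5 cells, then 3.60 (E12.5), 2.97 (E13.5) and 3.25 (E14.5), and 13.3 in E16.5 proximal and 19.1 in E16.5 distal cells. Whole limb held 5.85 and 6.72 CPM, above sorted E11.5 to E14.5. E11.5, E12.5, E13.5 and E14.5 could not be put in order by counting error between neighbours.

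**Figure D1:**
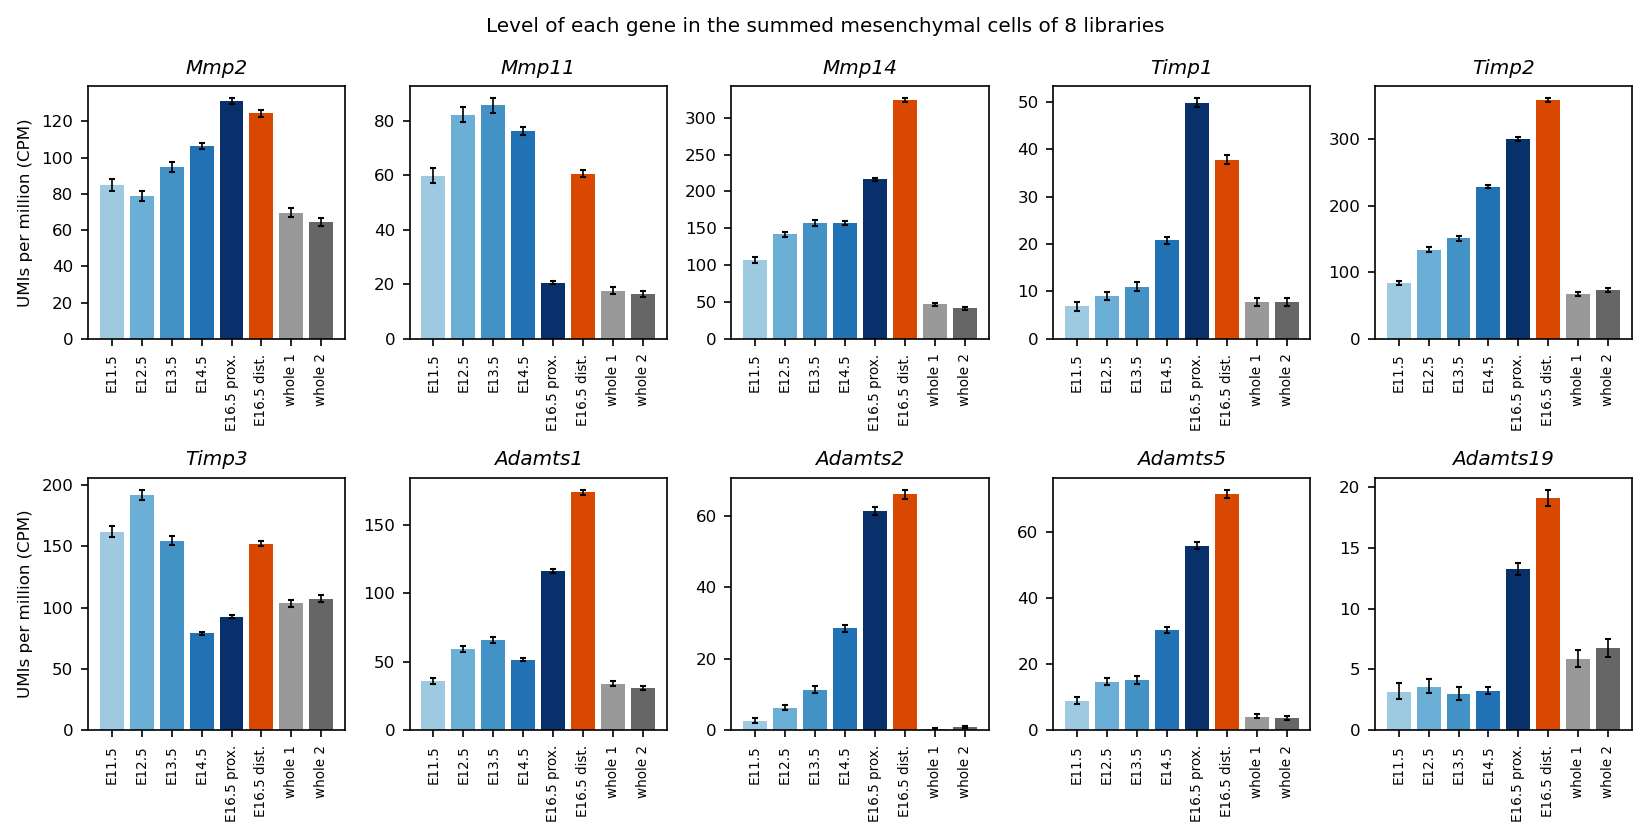
Level of each gene in the 8 libraries (CPM summed over mesenchymal cells, with 95% Poisson intervals for counting error). *Adamts2* climbs from 2.71 to 66.03 CPM over the sorted libraries, whereas *Mmp11* has its lowest sorted value, 20.6 CPM, in E16.5 proximal cells.

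The share of cells with a UMI was read once every cell was thinned to 3000 UMIs. *Mmp14* was seen in 28.4% of sorted E11.5 cells and 59.3% of E16.5 distal cells (60.5% and 97.5% without thinning). *Timp2* was seen in 22.8% and 62.5% (52.9% and 97.3% without thinning). At the other end, *Adamts19* was seen in 0.982% of sorted E11.5 and 5.24% of E16.5 distal cells (2.92% and 21.2% without thinning). As a background, epithelial-like cells of the E16.5 proximal library (936 cells, median 37772 UMIs before thinning, against 18473 for all its cells) held *Mmp14* in 6.52%, *Timp2* in 5.24% and *Adamts19* in 0.107%. These 3 shares lay below those of mesenchymal cells in that library, 44.4%, 53.7% and 3.28%. For some genes the share and the level parted. *Timp3* was seen in 19.4% of E14.5 and 19.3% of E16.5 proximal cells, though its level was higher in the latter. It was seen in 34.7% of E13.5 and 27.5% of E16.5 distal cells, and *Mmp11* in 16.8% of E11.5 and 12.6% of E16.5 distal cells, where the levels overlapped.

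From E11.5 to E16.5 proximal, 7 of the 10 genes were at least 2-fold higher and 1 was at least 2-fold lower. *Timp1*, *Adamts2*, *Adamts5* and *Adamts19* lay under 10 CPM at E11.5 and met the 10 CPM minimum of this count through E16.5 proximal alone, which favours higher ratios among them. Of the 6 genes at 10 CPM or more at E11.5, 3 were higher (*Mmp14*, *Timp2* and *Adamts1*) and 1 lower. Of the 9201 genes that reached 10 CPM in one of these libraries or both, 12.3% were higher and 27.9% lower by that measure. The median log2 ratio (of CPM + 1) was 1.72 over the 10 genes and -0.48 over all of these genes. The 1.72 includes *Timp1*, *Adamts2*, *Adamts5* and *Adamts19*, and is favoured upward in the same way. *Adamts2* was 22.6-fold (95% interval 18.2 to 28.3) higher, *Timp1* 7.29-fold (95% interval 6.37 to 8.39) and *Adamts5* 6.22-fold (95% interval 5.53 to 7.03). Smaller differences were those of *Adamts19*, 4.20-fold (95% interval 3.43 to 5.18), *Timp2*, 3.60-fold (95% interval 3.46 to 3.74), and *Adamts1*, 3.22-fold (95% interval 3.03 to 3.42). *Mmp14* lay just past the 2-fold line, at 2.02-fold (95% interval 1.95 to 2.10), and fell short of it over all cells that passed the filter, at 187 against 106 CPM. *Mmp11*, at 0.344 (95% interval 0.325 to 0.363) times its E11.5 level, was the gene that was lower. This held for the proximal segment, since E16.5 distal cells were at 60.6 CPM, which overlapped the 59.9 CPM at E11.5. *Mmp2* was within 2-fold, and so was *Timp3*, with a ratio of 0.573 (95% interval 0.555 to 0.591). In E16.5 distal cells *Timp3* was at 152 CPM, against 162 CPM at E11.5.

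Between E11.5 and E12.5, 0 of the 7 genes at 10 CPM or more differed by 2-fold (background 2.08% higher, 0.925% lower), and between E12.5 and E13.5 this was 0 of 9 (background 1.38% higher, 1.67% lower). *Adamts2*, which was under 10 CPM in both libraries of the first step, was 2.33-fold (95% interval 1.82 to 3.01) higher at E12.5 than at E11.5. Short of 2-fold in that step were *Adamts1*, 1.64-fold (95% interval 1.53 to 1.76) higher, and *Timp2*, 1.61-fold (95% interval 1.53 to 1.68). *Adamts5*, which met 10 CPM through E12.5 alone, was short of it too, at 8.97 CPM at E11.5 and 14.7 CPM at E12.5. From E13.5 to E14.5, *Adamts2* alone, of 9, was past 2-fold, at 2.52-fold (95% interval 2.30 to 2.77) higher, with a background of 4.2% higher and 4.92% lower. From E14.5 to E16.5 proximal, *Timp1*, *Adamts1*, *Adamts2* and *Adamts19* were higher, the last by 4.08-fold (95% interval 3.68 to 4.53), and *Mmp11* was lower, *Adamts19* having reached 10 CPM through E16.5 proximal alone (background 5.03% higher, 4.81% lower). For scale, whole limb replicates 1 and 2 differed by 2-fold in 0 of the 6 genes at that level, with 0.05% and 0.0999% of all genes higher or lower. Below that level, *Adamts2* was at 0.471 CPM (22 UMIs) in replicate 1 and 0.976 CPM (46 UMIs) in replicate 2.

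Other genes of the pathway were read from lists, beside the 12.3% of all genes that were higher. Of 10 substrates and cofactors, 10 were at least 2-fold higher at E16.5 proximal than at E11.5. Among them the aggrecan gene *Acan* was 144-fold (95% interval 102 to 211) higher, *Col5a2* 46.8-fold (95% interval 43.2 to 50.8) and *Col1a1*, which encodes a substrate of ADAMTS2, 25.3-fold (95% interval 24.7 to 25.8). Cell type markers also differed, chondrocyte markers summing to 698 CPM at E11.5 and 5280 CPM in E16.5 proximal, and fibroblast markers to 19.0 and 2291 CPM. Their part in these ratios was not tested. Of 14 inhibitors, activators and receptors, 9 reached 10 CPM in either library and 8 of them were higher, led by *Pcsk6* at 41.0-fold (95% interval 24.0 to 77.1), the urokinase receptor gene *Plaur* at 21.2-fold (95% interval 14.1 to 33.5) and the plasminogen activator gene *Plat* at 7.36-fold (95% interval 6.42 to 8.47). Of 20 other Adamts and Adamtsl genes, 7 reached 10 CPM and 3 were higher, namely *Adamts12* at 19.9-fold (95% interval 13.1 to 31.9), *Adamts4* at 5.24-fold (95% interval 4.25 to 6.53) and *Adamts9* at 2.09-fold (95% interval 1.92 to 2.28). Of 18 other Mmp genes, 2 reached 10 CPM and *Mmp23* was 9.89-fold (95% interval 8.46 to 11.6) higher. *Pcsk6* (0.415 CPM at E11.5), *Plaur* (0.734 CPM), *Plat* (6.74 CPM), *Adamts12*, *Adamts4*, *Mmp23* and, among the substrates and cofactors, *Acan* (1.02 CPM) and *Pcolce2* (3.03 CPM) reached 10 CPM through E16.5 proximal alone, which favours higher ratios among the genes counted. The collagenase gene *Mmp13* and the gelatinase gene *Mmp9* stayed at or below 0.0679 and 2.78 CPM in the sums of all libraries. Within them, *Mmp9* reached 19.3 CPM in an unnamed E16.5 distal cluster and 16.1 CPM in an unnamed E14.5 cluster.

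Summed over the 7 protease genes, the level went from 302 CPM at E11.5 to 615 in E16.5 proximal and 839 in E16.5 distal cells. The sum of the 3 Timps went from 252 to 443 and 549 CPM. Timp over protease ratios were 0.833, 0.866, 0.731 and 0.724 in order of age from E11.5 to E14.5, and 0.720 in E16.5 proximal and 0.654 in E16.5 distal cells. Whole limb, at 1.00 and 1.14, was the only sample kind in which the Timp sum was not below the sum of these 7 proteases. These are sums of 3′ UMIs, which are not affected by transcript length, and they say nothing of protein or activity. Proteases outside the list are not in them, such as *Mmp16* at 34.9 and 32.9 CPM in whole limb. The ratios, and which sum is larger, thus depend on the genes listed. Thinned to 3000 UMIs, 19.96% of sorted E11.5 cells, 8.54% of E16.5 proximal cells and 3.32% of E16.5 distal cells held no UMI of the 10 genes, against 34.8% and 35.5% in whole limb.

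**Figure D2:**
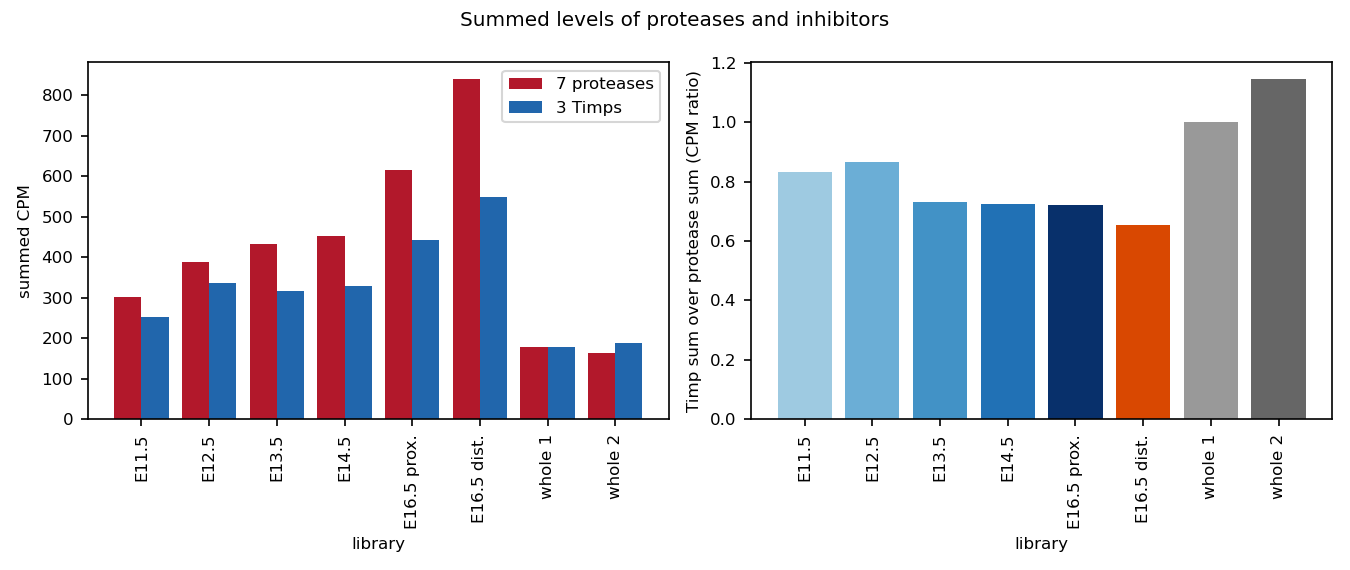
Summed level (CPM) of the 7 protease genes and the 3 Timps in each library (left), and the ratio of the Timp sum to the protease sum (right). The protease sum is highest in E16.5 distal cells, 839 CPM, where the ratio is lowest at 0.654, and the ratio is highest in the whole limb libraries.

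Sorted cells were set against whole limb at E11.5, the comparison with a replicated arm, which asks what the labelled lineage expressed beside the rest of the limb. Since sorted cells came from a lone library, lineage cannot be told apart here from library or sort gate. *Mmp11*, *Mmp14*, *Timp3*, *Adamts2* and *Adamts5* were higher in sorted cells and *Adamts19* was lower, by the quasi-likelihood test of edgeR over 15038 genes. In this comparison 53.4% of all genes were past the threshold (26.8% higher and 26.6% lower), so 6 of 10 is a share near the background. *Mmp11* was at 59.9 CPM in sorted cells and 17.7 and 16.4 CPM in the whole limb replicates, a log2 fold change of 1.63 ± 0.12 (± SE, as in the values that follow) with an edgeR adjusted p of 3.20e-38. *Mmp14* differed by 1.10 ± 0.09 on the log2 scale (edgeR adjusted p = 1.13e-29), and *Timp3* by 0.44 ± 0.09 (edgeR adjusted p = 9.62e-06). Over the 8 settings run, the highest adjusted p was 0.0130 for *Mmp11*, 0.0163 for *Mmp14* and 0.0358 for *Timp3*, each by edgeR with no filter on low counts. For each of these genes, the sorted value lay outside the range of both whole limb libraries. The same held for the members that were not past the threshold, so it does not set these genes apart.

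Among the Adamts genes, *Adamts2* differed by 1.72 ± 0.29 on the log2 scale (edgeR adjusted p = 3.08e-08) and *Adamts5* by 0.99 ± 0.18 (edgeR adjusted p = 1.09e-07). The *Adamts2* estimate rested on few whole limb UMIs, and became 1.28 without whole limb replicate 1 and 2.36 without replicate 2. *Adamts19* differed by -1.17 ± 0.20 (edgeR adjusted p = 3.40e-08). The highest adjusted p over the same settings was 0.0231 for *Adamts5* and 0.0293 for *Adamts19*. Not past the threshold were *Mmp2* (0.16 ± 0.09, edgeR adjusted p = 0.140), *Timp1* (-0.36 ± 0.17, edgeR adjusted p = 0.0619), *Timp2* (0.07 ± 0.09, edgeR adjusted p = 0.573) and *Adamts1* (-0.02 ± 0.12, edgeR adjusted p = 0.889). *Mmp2* passed the threshold in 3 and *Timp1* in 2 of 8 settings. The sorted and whole cells also differed in genes that mark the distal limb bud. Clusters named distal limb mesenchyme-like, by genes such as *Lhx2* and *Msx1*, made up 31.9% and 31.8% of whole limb cells and 0.348% of sorted cells, and the 7 markers summed to 1305 and 1165 CPM against 100.5 CPM. These cells held *Mmp11* at 8.32 and 6.87 CPM. Without them, a step chosen after the data were seen, whole limb held *Mmp11* at 24.2 and 23.0 CPM and *Mmp14* at 50.3 and 45.4 CPM, still below sorted cells. *Timp3* was then at 107 and 106 CPM, *Adamts2* at 0.583 and 1.29 CPM and *Adamts5* at 3.90 and 4.08 CPM, also below, and *Adamts19* at 7.83 and 8.02 CPM, above. The lone sorted library was assumed to vary like the whole limb libraries, with 1 residual degree of freedom. The SE values were derived from the fold change and the F statistic of the test, which shares spread across genes. They thus do not measure the spread of each gene between replicates.

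Other lists are read beside the 26.8% of all genes that were higher and 26.6% that were lower. Of the other Adamts and Adamtsl genes, 11 of 17 tested were higher and 1 was lower (median log2 fold change 0.99, against 0.01 over all genes). The most raised were *Adamtsl1* (3.21 ± 0.16), *Adamtsl3* (3.17 ± 0.19) and *Adamts15* (2.62 ± 0.23), and *Adamts20* was lower (-1.21 ± 0.33). Of the other Mmp genes, 2 of 5 tested, *Mmp17* and *Mmp23*, were higher. Inhibitors, activators and receptors were near that background, with 4 of 13 higher and 4 lower, among the latter the protease inhibitor gene *Serpine2* (-1.41 ± 0.10). Substrates and cofactors had 5 of 10 higher, such as *Col1a1* (1.48 ± 0.09), and 2 lower. Genes that respond to tissue handling, such as *Jun* and the heat shock gene *Hspa1a*, also moved, with 7 of 10 higher, 2 lower and a summed level of 2349 CPM in sorted cells against 1486 and 1407 CPM in whole limb, and their part in these differences was not tested.

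**Figure D3:**
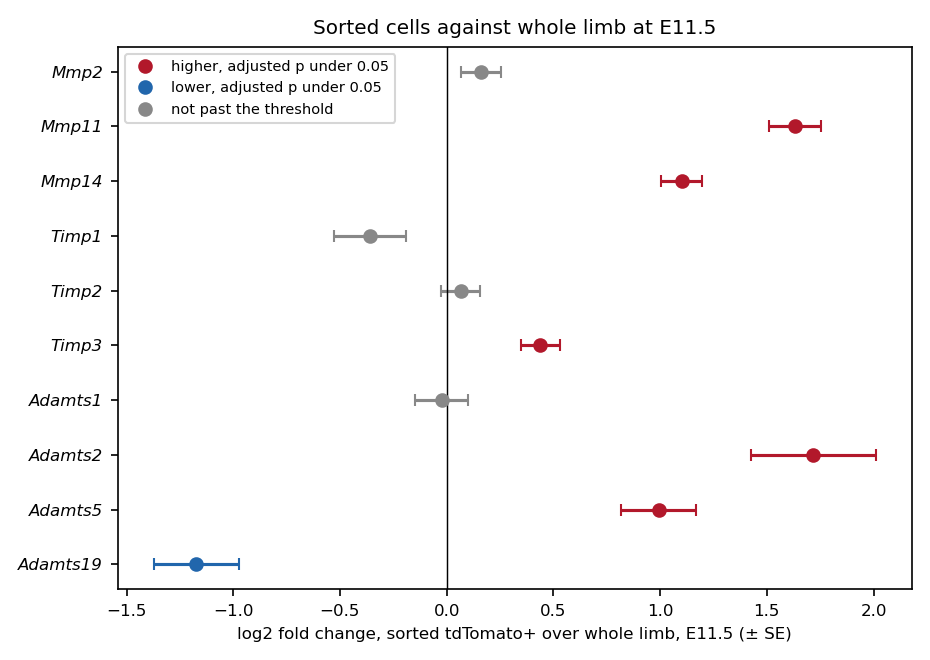
Log2 fold change of each gene in sorted tdTomato+ cells over whole limb at E11.5, from edgeR, with standard errors derived from its F statistic (1 sorted and 2 whole limb libraries). *Mmp11*, *Mmp14*, *Timp3*, *Adamts2* and *Adamts5* lie to the right of 0 and *Adamts19*, at -1.17, to the left, and the 4 grey genes did not pass the threshold.

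At E16.5, cells were clustered without the 10 genes, and clusters that met the markers of a cell type were called after it. The metalloproteinase *Mmp14* and its partner *Timp2* were high together in tenocyte-like cells, named by tendon genes such as *Scx* and *Tnmd*. There *Mmp14* was at 379 CPM (95% interval 369 to 389) in the proximal and 459.9 CPM (95% interval 448 to 472) in the distal library, and *Timp2* at 455 and 440.1 CPM. Proximal chondrocyte-like cells had 113 and 180.0 CPM of the 2 genes. An unnamed proximal cluster led by *Tnn* (297 cells) held the highest proximal *Timp2*, 555 CPM, next to an unnamed cluster led by *Nell2* at 545 CPM. In the distal library, unnamed clusters led by *Btc* and *Cldn3* were likewise above tenocyte-like cells in *Timp2*, at 496 and 488 CPM.

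*Mmp2* was also highest in the *Tnn*-led cluster, at 299.7 CPM (95% interval 283 to 317). It was at 197 CPM in proximal chondrocyte-like cells and at 20.9 CPM in pericyte-like cells, the lowest of the mesenchymal classes. In the proximal library, *Mmp2* was thus high in chondrocyte-like cells in which *Mmp14* was low. Distal chondrocyte-like cells (144 cells) had less *Mmp2*, 98.5 CPM, and more *Mmp14*, 289 CPM. The 2 groups were unlike in matrix genes too, with *Col2a1* at 21511.7 CPM in proximal and 4714 CPM in distal cells. *Col1a1* was at 1892 and 6189 CPM. The part of this in the *Mmp2* and *Mmp14* levels was not tested. In E14.5 dermal fibroblast-like cells *Mmp2* was at 156 CPM.

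In the proximal E16.5 library the 3 Timps had different top classes, whereas in the distal one *Timp1* (92.3 CPM) and *Timp2* were both highest, among named classes, in tenocyte-like cells. *Timp1* was highest in proximal chondrocyte-like (114 CPM) and tenocyte-like cells (97.7 CPM), and was at 8.65 CPM in distal dermal fibroblast-like cells. *Timp3* was highest in a distal unnamed cluster led by *Cldn3* (548 cells), at 460.5 CPM (95% interval 449 to 472). Among named classes, pericyte-like cells held the most, 274 CPM in the proximal and 279 CPM in the distal library. Dermal fibroblast-like cells had the least *Timp3* of the named mesenchymal classes, with 29.2 CPM at E14.5, 40.3 CPM in E16.5 proximal and 69.2 CPM in E16.5 distal cells.

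*Adamts1* and *Adamts5*, though neighbours on the chromosome, differed between cell types. *Adamts1* was highest in pericyte-like cells, 284 CPM (95% interval 267 to 303) in the proximal and 392 CPM in the distal library. *Adamts5* was at 7.24 and 20.8 CPM there. Fibroblast-like cells, named by markers such as *Dpt*, *Pi16* and *Cd34*, held both, with *Adamts5* at 169 CPM (95% interval 164.9 to 173) and *Adamts1* at 185 CPM in the proximal library. These fibroblast-like cells gave 59.7% of the proximal *Adamts5* UMIs and 19.7% of all UMIs. The class depended on how cells were grouped. At Leiden resolution 2 it held 494 proximal cells, with *Adamts5* at 338 CPM, and taken as every cell with at least 3 of its markers it held 4812, at 94.1 CPM. In the distal library, which had 98 of these cells, the *Cldn3*-led cluster held the most *Adamts5*, 271 CPM. The 10 handling response genes summed to 3743 CPM in proximal fibroblast-like and 3389 CPM in pericyte-like cells but 652 CPM in chondrocyte-like cells, and their part in the *Adamts1* levels was not tested.

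In some cells *Adamts1* and *Adamts5* were seen together. In E16.5 proximal cells thinned to 3000 UMIs, 17.3% of cells with *Adamts1* had *Adamts5*, against 8.38% of cells without it. Within fibroblast-like cells the shares were 37.0% (95% interval 33.4 to 40.7) and 24.5% (95% interval 22.2 to 26.9). In proximal dermal fibroblast-like cells they were 13.3% and 3.801%. In proximal tenocyte-like cells (7.66% and 5.46%) and chondrocyte-like cells (1.75% and 1.15%) the intervals overlapped. In the distal library they were 18.6% and 12.2% over all mesenchymal cells, but 6.38% and 5.71% in dermal fibroblast-like and 6.36% and 8.31% in tenocyte-like cells, where the intervals overlapped. They also overlapped at E11.5, sorted or whole. Over all mesenchymal cells they were apart at E12.5 (6.62% and 3.58%), E13.5 (6.38% and 3.25%) and E14.5 (13.8% and 7.22%). Within E14.5 dermal fibroblast-, tenocyte- and chondrocyte-like cells they overlapped. Cells of 1 library are not replicates, so these shares describe each library.

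*Adamts2* was highest in dermal fibroblast-like cells of the proximal library, at 147 CPM (95% interval 141 to 152), followed there by a histone-led cluster (leading gene *Hist1h2ap*) at 135 CPM. It was 14.8 CPM in chondrocyte-like and 15.4 CPM in pericyte-like cells. *Adamts19* was highest in fibroblast-like cells (33.0 CPM proximal, 55.2 CPM distal) and, in the proximal library, in an unnamed cluster led by *Car3* (42.1 CPM). Proximal pericyte-like and tenocyte-like cells had 0.869 and 1.45 CPM. Fibroblast-like cells gave 49.0% of proximal *Adamts19* UMIs. Their proximal level was 55.3 CPM at Leiden resolution 2 and 21.3 CPM in cells with at least 3 markers. The distal level, from 98 cells, was 29.5 CPM in the 3339 cells with at least 3 markers. Distal limb mesenchyme-like cells held 30.6 CPM.

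**Figure D4:**
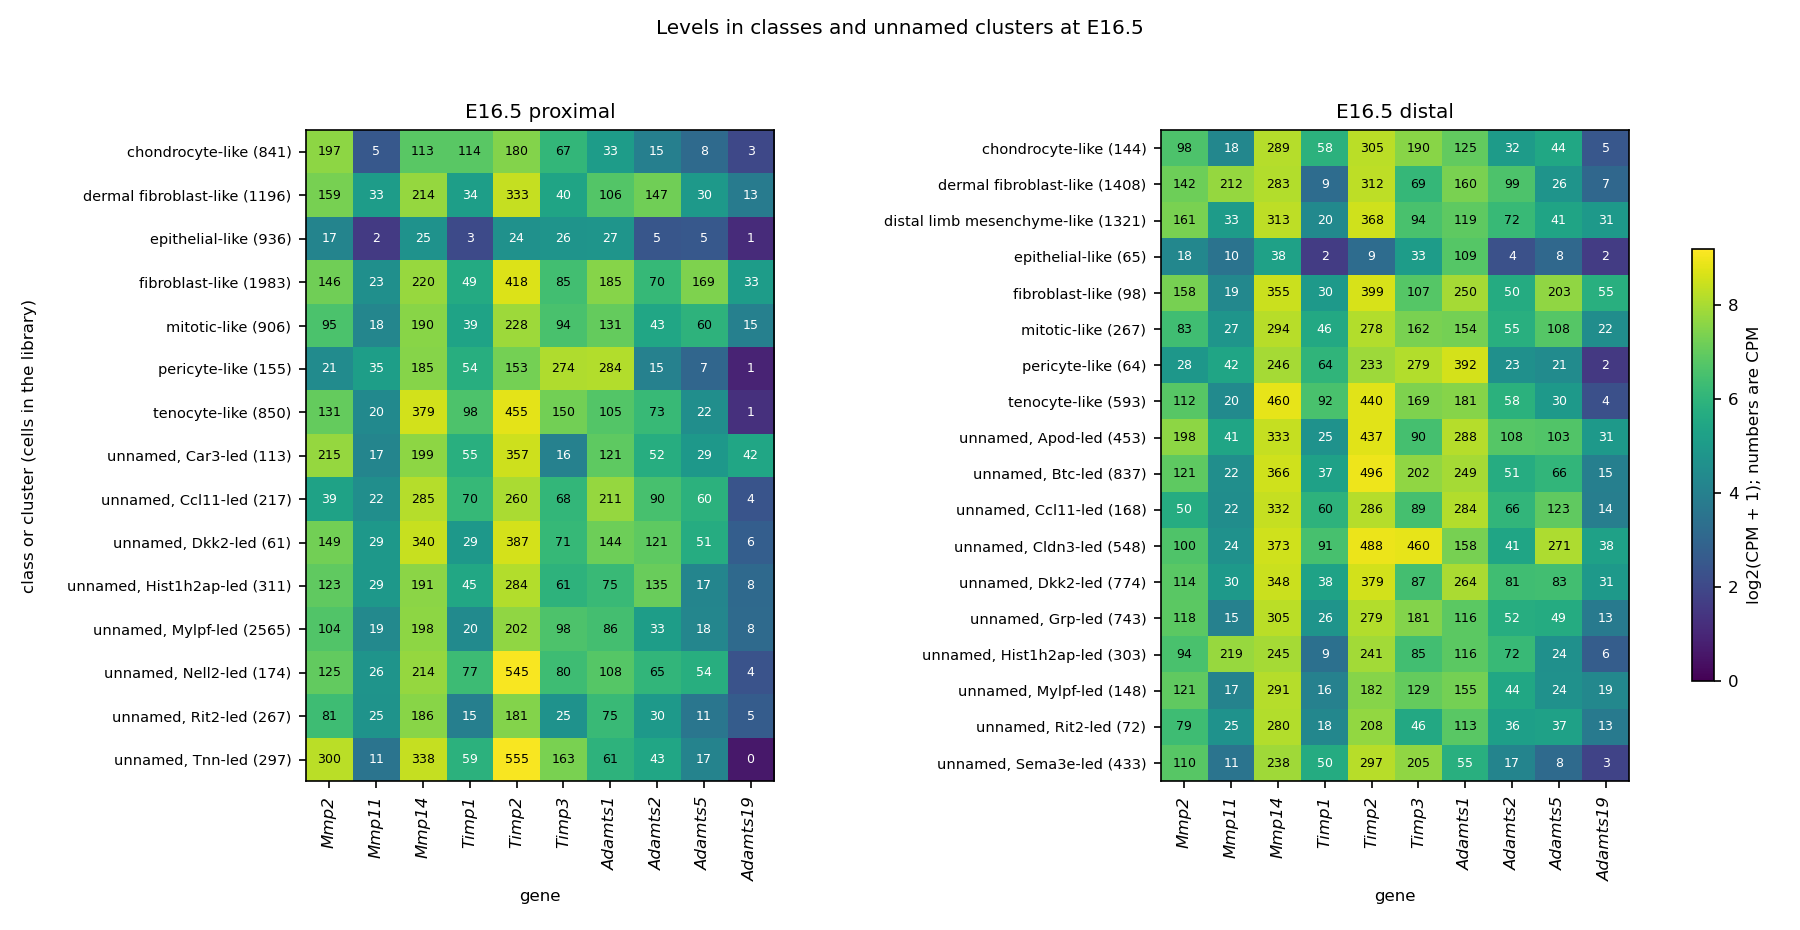
Levels (colour, log2 of CPM + 1, with the CPM printed in each cell) of the 10 genes in classes and unnamed clusters of 50 or more cells at E16.5 (all but 1 proximal cluster), with the number of cells in brackets. *Adamts19* is at 33.0 CPM in proximal fibroblast-like cells and near 0 in pericyte-like and tenocyte-like cells, and *Mmp11* is at 212 CPM in distal dermal fibroblast-like cells.

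The proximal and distal E16.5 libraries were compared as 2 parts of the limb. *Mmp11* alone was at least 2-fold apart, at 20.6 CPM in proximal and 60.6 CPM in distal cells, a ratio of 2.94 (95% interval 2.83 to 3.05). Of all 8382 genes at 10 CPM or more, 3.22% were higher in distal cells by that measure and 1.73% lower. *Timp3* at 1.64 (95% interval 1.61 to 1.67), *Mmp14* at 1.498 (95% interval 1.48 to 1.52), *Adamts1* at 1.49 (95% interval 1.47 to 1.52) and *Adamts19* at 1.44 (95% interval 1.36 to 1.52) had smaller ratios above 1. *Adamts5*, *Timp2* and *Adamts2* were at 1.28, 1.20 and 1.08. *Mmp2*, at 0.948, and *Timp1*, at 0.759 (95% interval 0.735 to 0.784), were below 1. Part of the limb cannot be told apart from the library. Of the handling genes, *Fos* and *Egr1* were 2.20- and 4.19-fold higher in distal cells.

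Dermal fibroblast-like cells gave the largest share of the distal *Mmp11*. They held 49.4% of its distal UMIs and 14.1% of all UMIs, at 212 CPM (95% interval 206 to 218), against 32.6 CPM (95% interval 30.1 to 35.2) in proximal cells of that class. At Leiden resolution 2 the distal class had 176 cells in place of 1408, with *Mmp11* at 151 CPM, which was 2.56 in place of 5.93 times its level in the other distal cells. The distal over proximal ratio in the class was 6.49 (95% interval 5.98 to 7.06). Different clusters held the class in the 2 libraries, however, with a *Zfp536*-led cluster holding 1328 of the 1408 distal cells and others most of the 1196 proximal cells. Within the only cluster with 50 or more dermal fibroblast-like cells of both libraries (805 proximal and 72 distal cells), the *Mmp11* ratio was 1.40 (95% interval 1.04 to 1.85). In the histone-led cluster it was 7.64 (95% interval 6.60 to 8.88), from 28.6 to 219 CPM. In tenocyte-like cells *Mmp11* had a ratio of 1.03 (95% interval 0.861 to 1.22) and in fibroblast-like cells 0.810 (95% interval 0.567 to 1.13). It was higher in distal cells of other classes too, with ratios of 3.77 (95% interval 2.69 to 5.25) in chondrocyte-like cells, 2.20 (95% interval 1.53 to 3.18) within the cluster that holds them in both libraries, and 1.496 (95% interval 1.27 to 1.76) in mitotic-like cells. At E14.5, dermal fibroblast-like cells were also highest in *Mmp11*, with 136 CPM against 40.1 to 84.5 CPM in the other mesenchymal classes.

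*Timp1* ran the other way in dermal fibroblast-like cells, with a distal over proximal ratio of 0.251 (95% interval 0.213 to 0.295), and of 0.350 (95% interval 0.158 to 0.675) within the cluster that both libraries shared. *Adamts2* had a ratio of 0.676 (95% interval 0.640 to 0.715) over the whole class and 0.317 (95% interval 0.229 to 0.429) within the shared cluster. In chondrocyte-like cells, by contrast, *Adamts5* had a ratio of 5.42 (95% interval 4.30 to 6.84) and *Adamts1* one of 3.77 (95% interval 3.32 to 4.26). The proximal class held *Col2a1* at 21511.7 CPM and *Acan* at 1464 CPM, against 4714 and 452 CPM in the distal class. Proximal chondrocyte-like cells came from 2 clusters and distal ones almost all from 1 of them. Within that shared cluster (245 proximal and 142 distal cells) *Adamts5* was at 2.45 (95% interval 1.93 to 3.11), *Adamts1* at 2.79 (95% interval 2.41 to 3.22), and *Mmp2* at 0.584 (95% interval 0.517 to 0.659). These distal cells were few, and an unnamed distal cluster led by *Sema3e* (433 cells) held more of the cartilage genes *Col2a1* (7619.8 against 4714 CPM) and *Acan* (738 against 452 CPM). There *Adamts5* was at 8.13 CPM (95% interval 6.16 to 10.54), which overlaps its 8.09 CPM in proximal chondrocyte-like cells, and *Adamts1* at 54.5 CPM, against 33.1 and 125 CPM in the proximal and distal class. The aggrecan gene *Acan* was 0.385 (95% interval 0.375 to 0.394) times as high in the distal as in the proximal library, and *Serpine2* 0.269 (95% interval 0.263 to 0.275) times. The cells named chondrocyte-like made up 7.57% of proximal and 1.70% of distal cells. The distal share leaves out the *Sema3e*-led cluster (433 cells). The 11 chondrocyte markers summed to 5280.4 and 1201 CPM in the 2 libraries. Without the named class, the distal over proximal log2 ratio (of CPM + 1) was 0.0023 for *Mmp2* in place of -0.08. For *Timp1* it was -0.22 in place of -0.39. The *Sema3e*-led cluster stayed in the distal sum in this step.

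**Figure D5:**
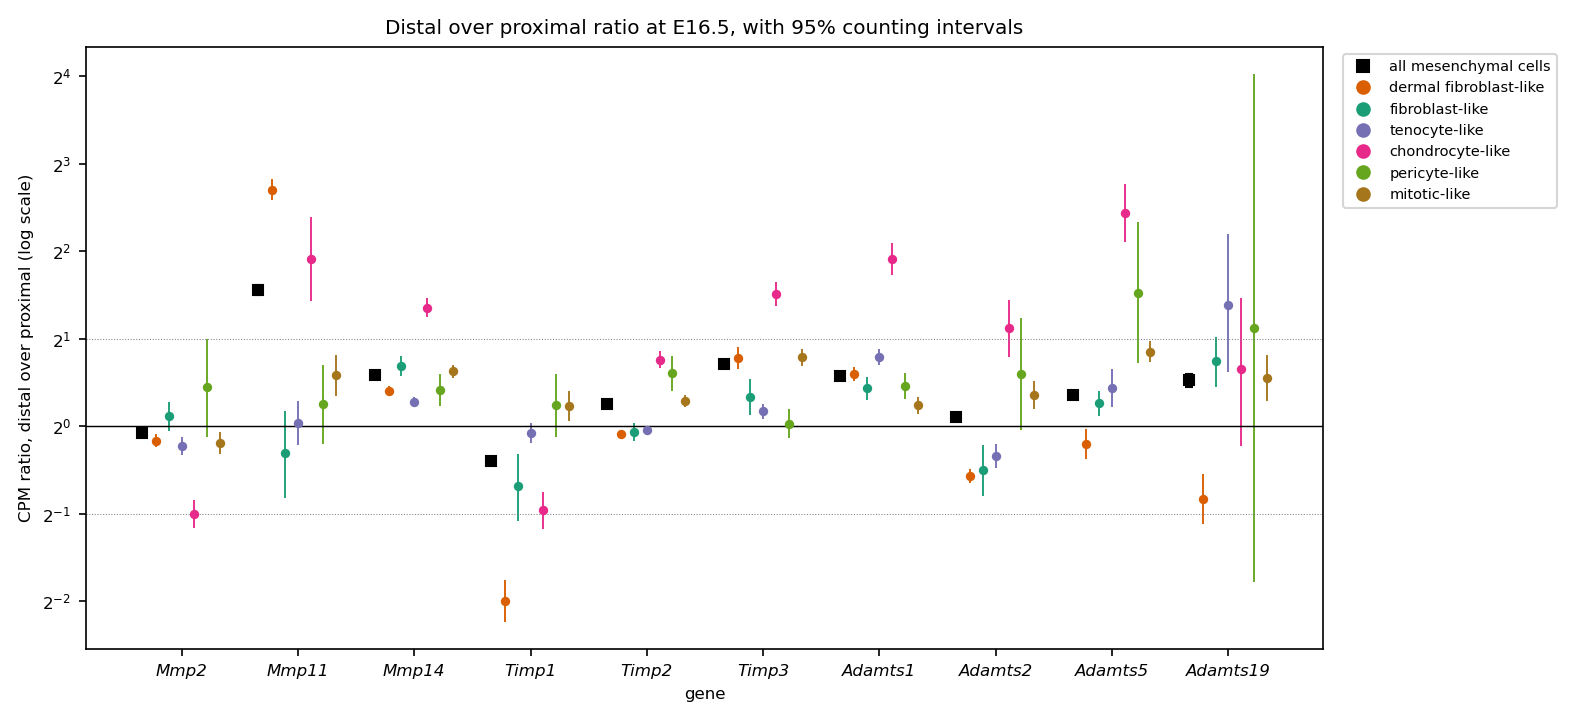
Distal over proximal ratio of each gene at E16.5 (log scale) in all mesenchymal cells (squares) and in each class held by both libraries (circles), with 95% counting intervals. *Mmp11* stands at 6.49 in dermal fibroblast-like cells and *Timp1* at 0.251, whereas *Adamts5* is at 5.42 in chondrocyte-like cells, of which the distal library had 144.

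Likeness of pattern was described over 81 profiles of a library and class or cluster, which share libraries, cells and depth. They include epithelial-like classes at E14.5 and E16.5 and myogenic-like ones in whole limb. E16.5 proximal epithelial-like cells held *Mmp14*, *Timp2* and *Adamts2* at only 24.6, 23.9 and 4.55 CPM. The part of such profiles, and of stage, in the correlations was not tested. *Mmp14*, *Timp2* and *Adamts2* varied together, with Pearson's r of log2(CPM + 1) of 0.90 for *Mmp14* and *Timp2*, 0.90 for *Mmp14* and *Adamts2* and 0.85 for *Timp2* and *Adamts2*. Least alike were *Timp3* and *Adamts19*, at -0.19. Among all genes reaching 50 CPM, *Adamts2* was most like *Col1a1* (r = 0.97), *Col5a1* (r = 0.97) and *Col6a1* (r = 0.96), all collagen genes. *Mmp14* was most like *Rcn3* (r = 0.94), *Selm* (r = 0.93) and *Aebp1* (r = 0.93), and *Timp2* most like *Fstl1* (r = 0.93), *Fbn2* (r = 0.93) and *Gpx7* (r = 0.93). *Adamts1* was most like *Csf1* (r = 0.87), *Lamc1* (r = 0.84) and *Col4a2* (r = 0.84), and *Adamts5* most like *Adam33* (r = 0.86), *Cd55* (r = 0.85) and *Fbn1* (r = 0.85). *Adamts19* was most like *Emilin2* (r = 0.72), *Pi16* (r = 0.65) and *Ly6a* (r = 0.65), of which *Pi16* and *Ly6a* mark fibroblasts. For *Timp1* the leading genes were *Pcolce* (r = 0.82), *Timp2* (r = 0.82) and *Bgn* (r = 0.82), for *Mmp2* *Cpxm1* (r = 0.73), *Sdf4* (r = 0.72) and *Surf4* (r = 0.72), for *Mmp11* *Mrfap1* (r = 0.78) and *R3hdm4* (r = 0.76) and for *Timp3* *Prkacb* (r = 0.62), *Daam2* (r = 0.62) and *Xpr1* (r = 0.59).

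The promoters of the 3 genes that varied together are shown so that their letters can be compared, each as 250 bases before and 50 after the start that RefSeq gives on GRCm38.p6. They lie at chr14:54431348-54431647 (+ strand) for *Mmp14*, chr11:118355362-118355661 (- strand) for *Timp2* and chr11:50601835-50602134 (+ strand) for *Adamts2*. Capitals mark the GC box GGGCGG on either strand.
Mmp14: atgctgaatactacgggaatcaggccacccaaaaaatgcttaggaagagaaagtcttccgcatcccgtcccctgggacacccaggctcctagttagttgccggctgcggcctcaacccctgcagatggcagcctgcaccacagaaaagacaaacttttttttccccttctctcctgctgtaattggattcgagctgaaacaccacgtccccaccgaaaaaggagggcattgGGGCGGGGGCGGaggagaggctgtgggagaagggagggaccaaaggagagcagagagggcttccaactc
Timp2: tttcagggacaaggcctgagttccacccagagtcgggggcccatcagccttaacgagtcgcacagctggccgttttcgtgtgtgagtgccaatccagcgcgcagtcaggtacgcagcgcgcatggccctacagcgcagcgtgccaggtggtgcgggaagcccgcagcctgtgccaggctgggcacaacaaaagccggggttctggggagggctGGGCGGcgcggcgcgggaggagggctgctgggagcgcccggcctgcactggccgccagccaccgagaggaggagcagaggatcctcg
Adamts2: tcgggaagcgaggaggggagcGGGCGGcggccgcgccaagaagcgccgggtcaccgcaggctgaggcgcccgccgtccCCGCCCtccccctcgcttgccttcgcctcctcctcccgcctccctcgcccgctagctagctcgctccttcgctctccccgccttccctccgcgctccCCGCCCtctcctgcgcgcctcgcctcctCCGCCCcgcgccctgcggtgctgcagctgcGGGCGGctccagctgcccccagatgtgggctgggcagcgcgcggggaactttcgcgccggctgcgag

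These windows held 2 GC boxes in *Mmp14*, 1 in *Timp2* and 5 in *Adamts2*, and 35.7% of 32851 promoters of that length held at least 1. Of the 10 genes, the promoters of 7 were examined, and all 7 held a GC box on one strand or the other. Those of *Mmp2*, *Adamts5* and *Adamts19* were not examined. The letters TATAAA (13.6% of promoters) were found on either strand in *Adamts1* alone, and TGANTCA, the letters that AP-1 factors bind (7.81% of promoters), in 0 of the 7. GC content was 77.3% in *Adamts2*, 68.7% in *Timp2* and 56% in *Mmp14*. A match of letters is a description of the sequence and not a site of binding.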

How the data were processed

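The authors aligned 10x Genomics 3′ reads to a modified mm10 genome with Cell Ranger (3.0.2 in 5 sorted libraries and 6.0.1 in E16.5 distal, per the file headers) and deposited raw UMI counts per gene and cell. From these, cells with 3000 UMIs or more and at most 10% mitochondrial UMIs were kept. The members and gene lists were chosen with earlier results of these data known. Cells were clustered without the members and lists (scanpy 1.11.5; 2000 variable genes, 50 components, Leiden resolution 1), and clusters were named from marker lists by a rule set after the clusters, but not the members' values in them, were seen. Scrublet's own threshold marked 0 to 5 cells per library, so the 5% with the highest scores were left out as an alternative. UMIs were summed per library and class. Sorted and whole E11.5 limb were tested with edgeR 4.0.16 (quasi-likelihood, TMM, filterByExpr, Benjamini-Hochberg at 0.05), and with DESeq2 1.42.0 and limma 3.58.1 as alternatives. This code was tested on simulated data. Other groups had 1 library, so ratios carry exact 95% binomial intervals and levels exact Poisson ones, with 2-fold at 10 CPM as the measure. Libraries held 32957305 to 236408650 UMIs. The whole limb replicates differed by more than sampling noise (chi-square of 16.0 per gene over 14242 genes) and counted as 2 samples, with nothing to say that they came from separate litters. All 10 members were named. From the lists, the 3 genes with the largest change per direction among those past the test or 2-fold could be named. For likeness, the 3 genes with the highest correlation among those reaching 50 CPM were taken. Promoters came from RefSeq on GRCm38.p6 (7 of 10 members examined, without *Mmp2*, *Adamts5* and *Adamts19*). In all 1 unnamed E16.5 cluster and 1 gene that the likeness rule would name are not reported here.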

Additional observations from a re-analysis of the deposited data

Results flagged for a closer look

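Within E16.5, 5 genes moved in opposite directions between proximal and distal cells in different classes. None of these differences was tested, since each class had 1 library per part of the limb, and different clusters held some classes in the 2 libraries. The distal over proximal ratio of *Timp1* was 1.17 in mitotic-like and 0.251 in dermal fibroblast-like cells. For *Timp2* it was 1.69 in chondrocyte-like and 0.938 in dermal fibroblast-like cells, and 1.36 and 0.587 within the 1 cluster of each class that both libraries shared. For *Adamts2* it was 2.17 and 0.676 in the same classes, and within the shared clusters 1.19 (95% interval 0.939 to 1.504) and 0.317 (95% interval 0.229 to 0.429). *Adamts5* had ratios of 5.42 in chondrocyte-like and 0.868 in dermal fibroblast-like cells. Within the shared clusters these were 2.45 and 5.40 (95% interval 3.88 to 7.45), both above 1, so the opposite directions were not seen within them. The unnamed distal cluster led by *Sema3e*, with more *Col2a1* and *Acan* than distal chondrocyte-like cells, held *Adamts5* at 8.13 CPM, against 8.09 CPM in proximal chondrocyte-like cells. *Adamts19* had ratios of 2.62 in tenocyte-like and 0.561 in dermal fibroblast-like cells, on few UMIs in the former, and of 1.79 (95% interval 0.829 to 3.72) within the larger tenocyte-like cluster that both libraries shared and 2.66 (95% interval 0.979 to 6.22) within the shared dermal fibroblast-like cluster, on 7 distal UMIs.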

How the results depend on the processing

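The 5 genes called higher at E11.5 stayed higher in sorted cells, past the threshold, with DESeq2, with limma-voom, on thinned cells, on all filtered cells, on all deposited barcodes and without the cells of highest doublet score (the last chosen after seeing the data). With no filter on low counts *Adamts2* was not past it (1.71, edgeR adjusted p = 0.0730, with a range of 1.99e-08 to 0.0730 over 8 settings). With all filtered cells or all barcodes, 2 genes in place of 1 were lower, *Timp1* joining. *Adamts1*, near 0 throughout, changed sign, at 0.041 with all filtered cells, 0.048 on thinned cells and 0.080 with all barcodes, and ran from -0.074 to 0.037 when 1 whole limb replicate was left out. *Timp2* ran from -0.0041 to 0.15 when 1 replicate was left out. With 1 library an arm these are values with no test. From E11.5 to E16.5 proximal, 6 genes in place of 7 were higher over all cells that passed the filter (without *Mmp14*), over all deposited barcodes and on thinned cells, and 2 genes in place of 1 were lower on thinned cells, *Timp3* joining. Between distal and proximal cells, the count past 2-fold was 1 higher and 0 lower under each alternative run. At Leiden resolution 2, 2 class ratios changed sign: the log2 ratio of *Mmp2* in distal limb mesenchyme-like over other distal cells was -0.076 in place of 0.45, and that of *Adamts2* in dermal fibroblast-like over other distal cells -0.57 in place of 0.71. Distal fibroblast-like cells had no value at resolution 2, so their *Adamts5* and *Adamts19* ratios were not checked at it. Without thinning, all 80 shares of cells with a UMI moved. The cause of these changes was not tested. Removal of Scrublet's own calls was not run, since it marked almost no cell. No paired analysis was possible because only whole limb carries replicate numbers above 1. Depth limits *Adamts2*, *Adamts19* and *Timp1* at early stages.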
